A study of Homo sapiens with 4 samples.

Results

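The genes described here carry glucose to pyruvate and set whether pyruvate becomes lactate or enters the mitochondrion. They were listed by symbol: the enzymes of glycolysis, the PFKFB enzymes that set the speed of phosphofructokinase, the phosphoglucomutases, lactate dehydrogenases, lactate and pyruvate carriers, and the pyruvate dehydrogenase complex with its kinases and a phosphatase. Of 34 listed genes, 31 had a probe set of their own among the 18417 genes of the table. The probe sets of PGAM1, a phosphoglycerate mutase, carry a second gene symbol, and the lactate carriers SLC16A1 and SLC16A3 matched no probe set in the annotation used, so these 3 genes have no value here.

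The samples were bulk RNA of the established osteosarcoma lines HOS and U2-OS, of human origin, grown in DMEM with serum, each left without OGE (0 μg/mL) or given 600 μg/mL OGE for 24 h. OGE is not spelled out in the labels. Each of the 4 conditions was hybridised to a single array, so there is no replicate within a condition, and nothing in the labels says how many cultures stand behind an array. The design asks how OGE alters expression in each line, and also allows the lines to be compared in either state.

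Cells split each glucose molecule into a pair of pyruvate molecules. Hexokinases trap glucose by phosphorylating it, phosphofructokinase commits it to breakdown, and the lower steps from GAPDH to pyruvate kinase return ATP. Pyruvate then goes to lactate through lactate dehydrogenase, or passes the mitochondrial pyruvate carrier and is oxidised by the pyruvate dehydrogenase complex, which the PDK kinases switch off and the PDP phosphatases switch on. Many tumour lines run glycolysis at a high rate, and HIF-1 and MYC are known regulators of several of these genes.

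Values are log2 levels of a probe set, so a difference of 1 between arrays is 2-fold. Levels are compared between arrays for the same gene and not between genes. The terms higher by size and lower by size mean a difference of at least 1 with the higher value at or above its array's median, the floor. Array medians lay between 3.58 and 3.62, and over all 33297 probe sets the Pearson correlation of a line's pair of arrays was 0.980 for HOS and 0.968 for U2-OS. Of the mesenchymal markers, 8 of 8 reached the floor on an array, as did the osteoblast lineage markers RUNX2, SP7 and ALPL, while SPP1 and IBSP were below it on all arrays. The floor was reached by 3 of 4 epithelial markers, with CDH1 below it everywhere, by 1 of 5 immune markers, with PTPRC below it, and by 0 of 4 endothelial markers. Summed over the list on an array, mesenchymal markers were at 59.72 without and 55.71 with OGE in HOS. In U2-OS the sums were 57.69 and 51.48. The sum was thus lower on both OGE arrays, but not every marker was. VIM was at 8.78 on both HOS arrays, and TWIST1 was at 4.79 without and 5.18 with OGE in U2-OS. Sums of the osteoblast lineage markers lay between 16.07 and 18.04 and of epithelial markers between 13.06 and 14.06. Those of immune markers lay between 10.61 and 11.59 and of endothelial markers between 9.14 and 10.71 on the log2 scale. Their part in the results was not tested.

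With OGE, the genes of this pathway did not move as a block. Higher by size were single isoenzymes and regulators: HK2, PFKFB4, ALDOC, ENO2 and PDK1 in U2-OS, and PFKFB3 and ENO2 in HOS. Lower by size were PGM2 and PDHB in HOS, and LDHB and PDP1 in U2-OS. The isoenzymes ENO1 and LDHA had changes between -0.35 and -0.09 in both lines, and GAPDH was at 0.23 in HOS and -0.07 in U2-OS.

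In HOS, 2 of the 30 members at the floor were higher by size, against 1.70% of the 11334 genes there, and 2 were lower, against 2.18% of those genes. In U2-OS, 5 of 30 were higher, which is 16.7% beside 2.94% of 11506 genes, and 2 of 30 were lower, beside 7.88%. ENO2 was the 1 member higher in both lines, where 0.768% of genes were, and 0 members were lower in both, where 1.09% were. The median change of the 31 measured members was 0.28 in HOS and 0.02 in U2-OS, beside 0.02 and 0.03 over all genes. The U2-OS median was 0.085 after quantile normalization, 0.146 after cyclic loess, 0.170 with probe sets averaged per gene and -0.010 over the members with a mean level at or above the median. Of the 31, 15 were above 0 in both lines, 10 below 0 in both and 6 of opposite sign. None of these 6 differed from 0 by 0.5 or more in both lines. The signs are those of the deposited values, and some values near 0 changed sign after quantile normalization or cyclic loess. By line, 20 were above 0 in HOS and 16 in U2-OS, beside 51.7% and 48.8% of genes at the floor. The share of all genes with the same sign in both lines was not counted. With bulk RNA, less RNA per cell and fewer cells that hold it cannot be told apart.

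**Figure D1:**
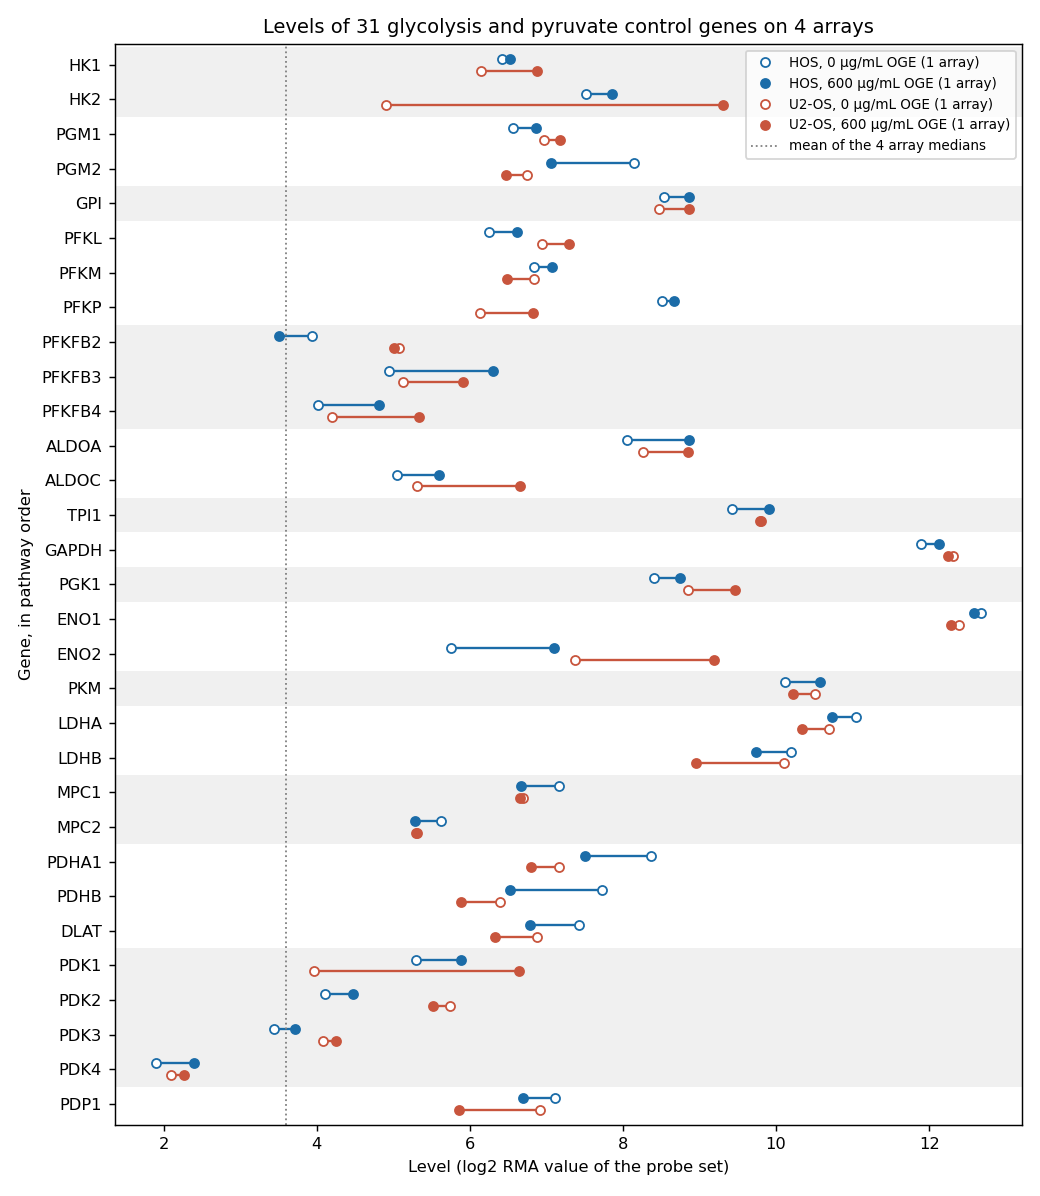
Log2 level of each of the 31 measured genes in pathway order (vertical axis), with open points for the control array and filled points for the OGE array of HOS (blue) and U2-OS (red), 1 array per point; shaded bands group the genes by step and the dotted line is the mean of the array medians. HK2 runs from 4.90 to 9.31 in U2-OS, the longest line of the plot, while in HOS it runs from 7.52 to 7.86.

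The test across the lines was limma, with cell line as the second term, adjusted by Benjamini-Hochberg over all 18417 genes. It takes the lines as the repeats, so a gene that responds in a single line has a large error. For OGE, limma called 0 of 31 members at an adjusted p under 0.05, as it called 0.00% of all genes. At an unadjusted p under 0.05 it had 7 members higher, beside 5.67% of genes, and 6 lower, beside 8.52%. The lowest adjusted p of a member was 0.228, shared by PFKFB3, PFKFB4 and ENO2. It was also the lowest over all genes, and genes outside the list shared it, so it does not set these 3 apart.

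Of the genes called by size with OGE, the promoters of PFKFB3, PFKFB4 and PDK1 (higher) and PGM2 and PDP1 (lower) are not shown. Promoters of 5 genes called by size, not the full set, are shown: HK2, ALDOC and ENO2 (higher) and LDHB and PDHB (lower). Each is the 250 bases before the start site in RefSeq on GRCh38.p14, at chr2:74833877-74834126 for HK2 (plus strand), chr17:28576896-28577145 for ALDOC (minus strand), chr12:6914330-6914579 for ENO2 (plus strand), chr12:21657843-21658092 for LDHB (minus strand) and chr3:58433833-58434082 for PDHB (minus strand). For HK2, which has 2 starts in the table, the upstream one is shown. Capitals mark matches on either strand to ACGTG or GCGTG (the core of the element bound by HIF), CACGTG (the E-box, which contains ACGTG), TGATGNAA (an element bound by ATF4 with C/EBP proteins) or TGACNNNGC (the antioxidant response element).
HK2: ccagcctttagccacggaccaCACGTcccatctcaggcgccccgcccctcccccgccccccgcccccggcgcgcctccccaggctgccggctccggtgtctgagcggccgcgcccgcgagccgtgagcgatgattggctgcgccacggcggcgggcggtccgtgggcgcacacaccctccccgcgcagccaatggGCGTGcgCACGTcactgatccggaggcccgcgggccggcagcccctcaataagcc
ALDOC: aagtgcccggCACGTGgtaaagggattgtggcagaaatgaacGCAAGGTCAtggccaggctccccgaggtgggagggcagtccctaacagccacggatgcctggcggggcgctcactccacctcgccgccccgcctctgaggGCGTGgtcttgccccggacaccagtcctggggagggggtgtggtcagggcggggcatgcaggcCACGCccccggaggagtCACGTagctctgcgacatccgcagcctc
ENO2: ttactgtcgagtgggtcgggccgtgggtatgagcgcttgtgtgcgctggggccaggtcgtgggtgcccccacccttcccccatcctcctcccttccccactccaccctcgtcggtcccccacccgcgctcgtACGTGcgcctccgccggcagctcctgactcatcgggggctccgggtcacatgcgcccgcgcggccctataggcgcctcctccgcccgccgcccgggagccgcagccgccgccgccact
LDHB: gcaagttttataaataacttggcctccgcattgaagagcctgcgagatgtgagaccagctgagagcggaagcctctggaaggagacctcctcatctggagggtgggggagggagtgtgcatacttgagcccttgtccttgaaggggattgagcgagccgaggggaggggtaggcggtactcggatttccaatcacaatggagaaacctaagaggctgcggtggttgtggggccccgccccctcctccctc
PDHB: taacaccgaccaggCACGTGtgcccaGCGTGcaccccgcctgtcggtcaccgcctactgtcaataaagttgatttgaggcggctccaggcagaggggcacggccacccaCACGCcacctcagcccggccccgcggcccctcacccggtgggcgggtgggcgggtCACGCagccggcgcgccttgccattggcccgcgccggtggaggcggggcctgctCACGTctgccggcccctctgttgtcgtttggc

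HK2 had a pair of ACGTG matches in this window, the nearer one 48 to 44 bases before the start, next to a GCGTG match at 55 to 51. ENO2 had 1 ACGTG match, at 118 to 114 bases before its start. ALDOC had 3 ACGTG matches, 2 of them overlapping on opposite strands within an E-box at 240 to 235 bases, and an antioxidant element match at 208 to 200. PDHB, lower by size in HOS, also had 3 ACGTG matches and 3 GCGTG matches, while the LDHB window had no match to any of the 5 motifs.

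Taking the first listed start of each gene, 12 of the 29 members in the promoter table had ACGTG, which is 41.4%, beside 20.8% of 15843 protein-coding genes and 18.7% of all 27305 genes. GCGTG was in 44.8% of the members' windows and 39.2% of the protein-coding ones, CACGTG in 17.2% and 7.84%, TGACNNNGC in 17.2% and 11.5%, and TGATGNAA in 3.45% and 2.21%. Members' windows were also richer in G and C, with a median of 70.4% beside 62.4%, and the part of base composition in these shares was not tested. PFKFB4, higher in U2-OS, had no ACGTG and 1 GCGTG. PFKFB3, higher in HOS, had no ACGTG and 1 GCGTG at its first listed start, and 2 ACGTG at its other start. PDK1, higher in U2-OS, had no match to any motif at its first listed start, and 2 ACGTG at its other start. Among genes called higher, the printed windows are thus the ones with ACGTG at the first listed start. PGM2, lower in HOS and not printed, had 3 ACGTG, 1 GCGTG and 1 CACGTG. These matches are a description of the sequence in these windows.

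Hexokinase genes open the pathway. HK2, the inducible hexokinase that binds mitochondria, was at 7.52 in control HOS, 7.86 in HOS with OGE, 4.90 in control U2-OS and 9.31 in U2-OS with OGE. The control U2-OS array was thus the lowest of the 4 and the U2-OS array with OGE the highest. The U2-OS change of 4.41 is 21.3-fold, and only 4 of the genes at the floor had a larger rise there; in HOS the change was 0.34, or 1.27-fold, with 2178 genes above it. The difference of the responses, 4.07, has no test with 1 array per condition, and limma over both lines gave an adjusted p of 0.374. HK1, the widely expressed hexokinase, was at 6.42 and 6.52 in HOS and 6.15 and 6.88 in U2-OS, changes of 0.10 and 0.73.

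Between hexokinase and phosphofructokinase, most differences were under 2-fold. GPI, which turns glucose 6-phosphate into fructose 6-phosphate, had nearly the same change in the lines, 0.33 in HOS and 0.39 in U2-OS, from 8.53 to 8.86 and from 8.47 to 8.86. PGM1, which links glycolysis to glycogen, had changes of 0.29 and 0.21. PGM2, whose product acts mainly on pentose phosphates, was lower by size in HOS, at 8.14 on the control array and 7.06 on the OGE array, a change of -1.08. In U2-OS it was at 6.74 and 6.47. After quantile normalization the HOS change of PGM2 was -0.99, which ends its call.

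The subunits of phosphofructokinase, the committed step, had no call for OGE. PFKL, the liver-type subunit, had changes of 0.37 in HOS and 0.36 in U2-OS. PFKP, the platelet-type subunit, had changes of 0.16 and 0.70, and PFKM, the muscle-type subunit, of 0.23 and -0.36.

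PFKFB enzymes make and remove fructose 2,6-bisphosphate, the strongest activator of phosphofructokinase. PFKFB3, the isoform with the highest kinase activity relative to its phosphatase activity, was at 4.95 in control HOS and 6.30 in HOS with OGE, a change of 1.35 or 2.55-fold, and 68 genes had a larger rise. In U2-OS it was at 5.13 and 5.91, a change of 0.78. PFKFB4 was at 4.02 and 4.81 in HOS and at 4.20 and 5.33 in U2-OS, changes of 0.79 and 1.13. Both genes were thus higher on both OGE arrays than on either control array, and the share of all genes with this order was not counted. Mean changes were 1.07 ± 0.40 for PFKFB3 and 0.96 ± 0.24 for PFKFB4 (SD, n = 2 lines). PFKFB2, a widely expressed isoform, went the other way, with changes of -0.43 and -0.06, and its value of 3.51 in HOS with OGE was below the array median of 3.62.

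Aldolases split fructose 1,6-bisphosphate into triose phosphates. ALDOC, the brain-type aldolase, was at 5.05 and 5.60 in HOS and at 5.31 and 6.65 in U2-OS, where its change of 1.34 was 2.53-fold. ALDOA, the main aldolase of muscle and of most cultured cells, was at 8.05 and 8.86 in HOS and 8.26 and 8.85 in U2-OS, changes of 0.81 and 0.59. On both genes the OGE arrays lay above both control arrays, as they also did for GPI. The share of all genes with this order was not counted. TPI1, which interconverts the triose phosphates, had probe sets that disagreed in U2-OS: the one used had changes of 0.49 in HOS and -0.01 in U2-OS, and the other of 0.40 and 0.38.

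In lower glycolysis, the enolases, which make phosphoenolpyruvate, gave unlike values within 1 family. ENO2, the neuron-type enolase, was at 5.75 without OGE and 7.10 with it in HOS, and at 7.38 and 9.19 in U2-OS. These are changes of 1.35 (2.55-fold) and 1.81 (3.51-fold), with 68 and 75 genes showing a larger rise. Its mean change was 1.58 ± 0.33 (SD, n = 2 lines), and limma gave an adjusted p of 0.228, with 0.0335 after quantile normalization and between 0.0335 and 0.831 over the settings tried. ENO1, the enolase of most tissues, was at 12.68 and 12.59 in HOS and 12.39 and 12.29 in U2-OS, changes of -0.09 and -0.10. These values are near the top of the scale, where the highest probe set of any array was 13.41, and whether the top of the scale limits the differences of ENO1 and GAPDH was not tested.

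The remaining enzymes down to pyruvate differed by less than 2-fold. PGK1, the first ATP-forming enzyme, was at 8.40 and 8.75 in HOS and 8.85 and 9.47 in U2-OS, changes of 0.35 and 0.62. GAPDH, which reduces NAD, was at 11.90 and 12.13 in HOS and 12.31 and 12.24 in U2-OS. PKM, the pyruvate kinase of most cells, had changes of 0.46 in HOS and -0.29 in U2-OS, which are of opposite sign. PKM has 1 value per array, so its splice forms are not told apart.

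**Figure D2:**
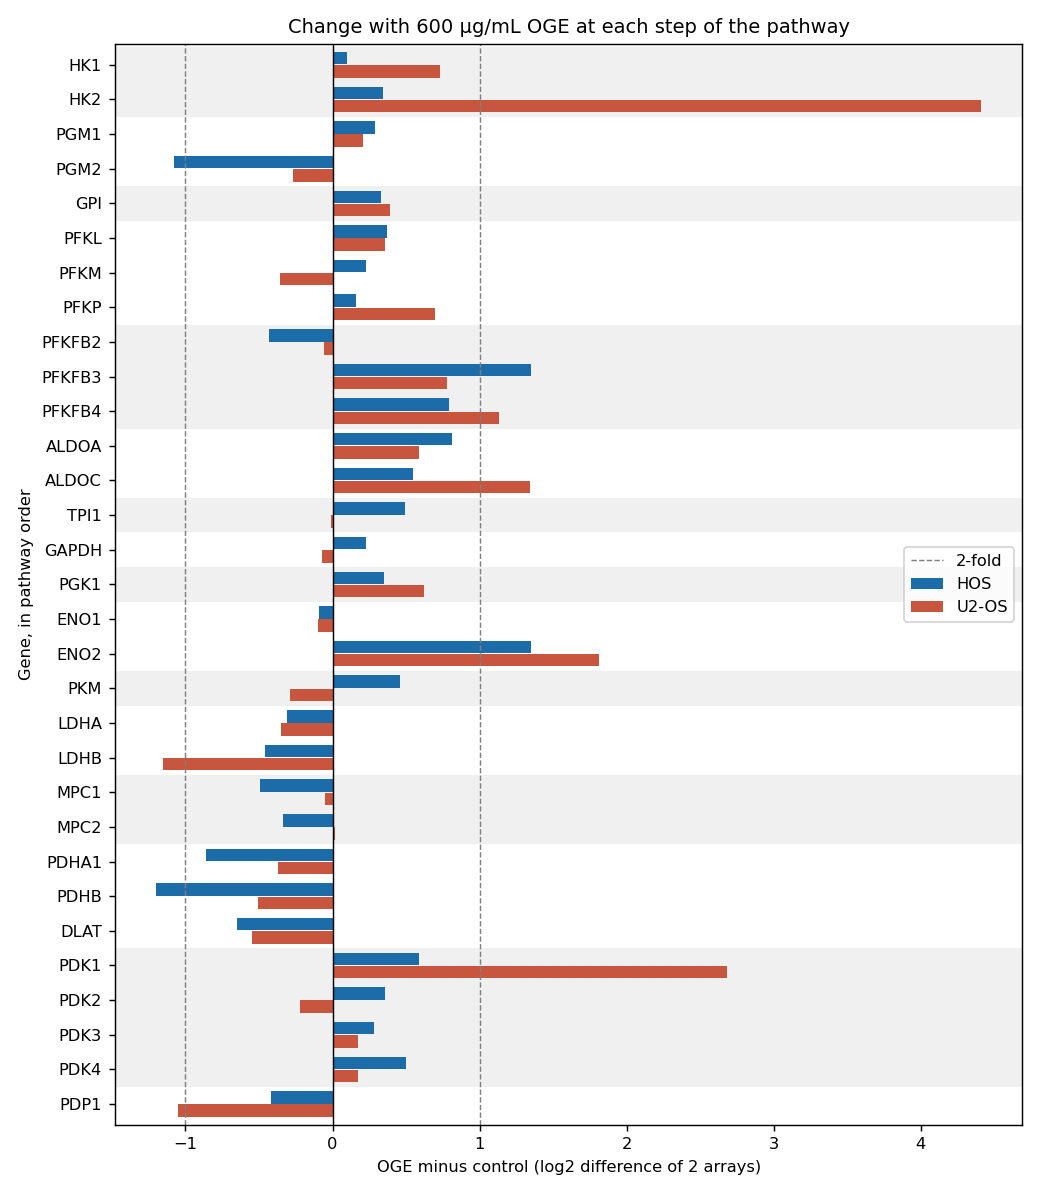
Log2 difference between the OGE and the control array in HOS (blue) and U2-OS (red) for each gene in pathway order, as bars from 0, with dashed lines at 2-fold. HK2 at 4.41 and PDK1 at 2.68 in U2-OS stand beyond all others, and ENO2 passes 2-fold in both lines. The 10 genes below 0 in both are PGM2, PFKFB2, ENO1, LDHA, LDHB, MPC1, PDHA1, PDHB, DLAT and PDP1.

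At the branch to lactate both measured genes had lower values with OGE. LDHB, the subunit favoured in tissues that oxidise lactate, was at 10.20 and 9.74 in HOS and at 10.10 and 8.95 in U2-OS, a change of -1.15 there and -0.46 in HOS. The U2-OS call was lost after quantile normalization, with -0.91, and after cyclic loess, with -0.99. LDHA, the subunit favoured in glycolytic cells and a known HIF-1 target, was at 11.04 and 10.73 in HOS and 10.69 and 10.34 in U2-OS, changes of -0.31 and -0.35. Changes at least as large as those of LDHA, in either direction, were seen in 44.3% of genes at the floor in HOS and 51% in U2-OS. For LDHB these shares were 26.7% and 7.6%.

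The mitochondrial pyruvate carrier is built of MPC1 and MPC2. In HOS they had changes of -0.49 and -0.34, and in U2-OS of -0.05 and 0.02. Neither was called by size.

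The pyruvate dehydrogenase complex, which makes acetyl-CoA, had lower values with OGE for all 3 members in both lines, with 1 call by size. PDHB, the beta subunit of the dehydrogenase, was at 7.72 and 6.52 in HOS, a change of -1.20 or 2.30-fold, and at 6.40 and 5.89 in U2-OS, a change of -0.51. PDHA1, the alpha subunit that the kinases phosphorylate, was at 8.37 and 7.51 in HOS and 7.17 and 6.80 in U2-OS. DLAT, the acetyl-transferring core, was at 7.43 and 6.78 in HOS and 6.88 and 6.33 in U2-OS. In HOS, changes at least as large in either direction were seen in 1.71% of genes at the floor for PDHB, 6.31% for PDHA1 and 13.9% for DLAT. In U2-OS these shares were 34.5%, 48.6% and 31.5%, so changes of this size were common there. For each of these genes the OGE array was below the control array of its own line, with mean changes of -0.86 ± 0.49 for PDHB, -0.62 ± 0.35 for PDHA1 and -0.60 ± 0.07 for DLAT (SD, n = 2 lines) and limma adjusted p of 0.267, 0.317 and 0.274.

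Among the kinases that switch the complex off, PDK1, a known HIF-1 target, was at 5.30 and 5.89 in HOS and at 3.96 and 6.64 in U2-OS. As with HK2, the control U2-OS array was the lowest of the 4 and the U2-OS array with OGE the highest. The U2-OS change of 2.68 is 6.41-fold, with 24 genes showing a larger rise, and the HOS change was 0.59. Over both lines limma gave an adjusted p of 0.303. PDK2 had changes of 0.36 and -0.22 and PDK3 of 0.28 and 0.17, and PDK4, a kinase induced by fasting, lay between 1.90 and 2.40, below the median of every array. PDP1, the phosphatase that switches the complex on, was at 7.11 and 6.69 in HOS and 6.91 and 5.86 in U2-OS, where it was lower by size with -1.05. In U2-OS the kinase PDK1 was thus higher and the phosphatase PDP1 lower by size on the same pair of arrays. The sizes were unlike. Changes at least as large in either direction were seen in 0.261% of genes at the floor for PDK1 and 9.59% for PDP1. A link between the 2 changes was not tested.

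**Figure D3:**
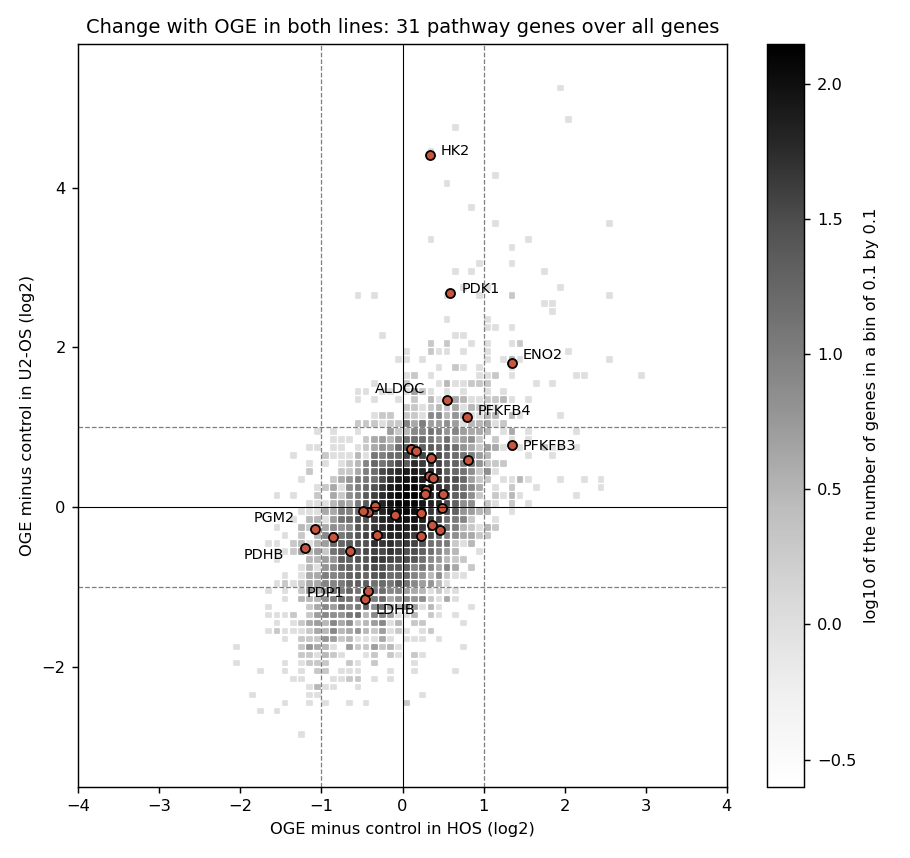
Log2 change with OGE in HOS (horizontal) against U2-OS (vertical) for the 31 genes (red points), over the density of all genes at the floor in both lines (grey squares, bins of 0.1 by 0.1 coloured by log10 of the number of genes); dashed lines mark 2-fold. HK2 and PDK1 sit high above the cloud near 0.34 and 0.59 in HOS, and ENO2 is the 1 point beyond 2-fold on both axes.

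The responses of the lines differed by 1 or more for 2 members, HK2 by 4.07 and PDK1 by 2.09; among all genes at the floor in both lines, 6.07% differed by as much. These differences come from 4 arrays with no replicate and were not tested. For the other 29 members the responses differed by between 0.01 and 0.81 in size.

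Compared between the lines, U2-OS and HOS differed in the isoenzymes of several steps. By size and in both states, PFKFB2, ENO2 and PDK2 were higher in U2-OS, 3 of 30 members beside 3.0% of 11069 genes, and PFKP was lower, 1 of 30 beside 3.17%. PFKP was at 8.51 and 8.67 in HOS and at 6.13 and 6.83 in U2-OS. It differed by -2.38 without OGE and -1.84 with it. ENO2 differed by 1.63 and 2.09, PDK2 by 1.63 and 1.05 and PFKFB2 by 1.13 and 1.5. PDK2, a broadly expressed kinase, was at 4.11 and 4.47 in HOS and 5.74 and 5.52 in U2-OS.

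With limma over all genes, PFKP and ENO2 were called between the lines, with adjusted p of 0.0405 and 0.0417, a lower and a higher member beside 1.04% and 0.885% of genes. Their mean differences were -2.11 ± 0.38 and 1.86 ± 0.33 (SD, n = 2 states), and the states are the only repeats. Without the OGE term the limma adjusted p was 0.0587 for PFKP and 0.330 for ENO2. PFKFB2 and PDK2 had limma adjusted p of 0.0554 and 0.0658. At an unadjusted p under 0.05, limma had 6 members higher in U2-OS, beside 10.3% of genes, and 5 lower, beside 10.4%.

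Without OGE, U2-OS had lower values by size than HOS for HK2, PGM2, PFKP, PDHA1, PDHB and PDK1, 6 of 30 members, beside 5.64% of 11605 genes. With OGE, PFKP alone of the members was lower, 1 of 30 beside 6.24% of 11492 genes. The members higher by size in U2-OS were 3 of 30 without OGE, beside 8.26%, and 5 of 30 with it, beside 4.89%. HK2 turned from a difference of -2.62 without OGE to 1.45 with it, a call by size in each direction. Of all 11069 genes at the floor in both states, 5 had calls of opposite direction. PDK1 went from -1.34 to 0.75, and the differences of PDHA1 and PDHB from -1.20 and -1.32 to -0.71 and -0.63. These comparisons share arrays with those for OGE, so they are the same 4 values seen another way.

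**Figure D4:**
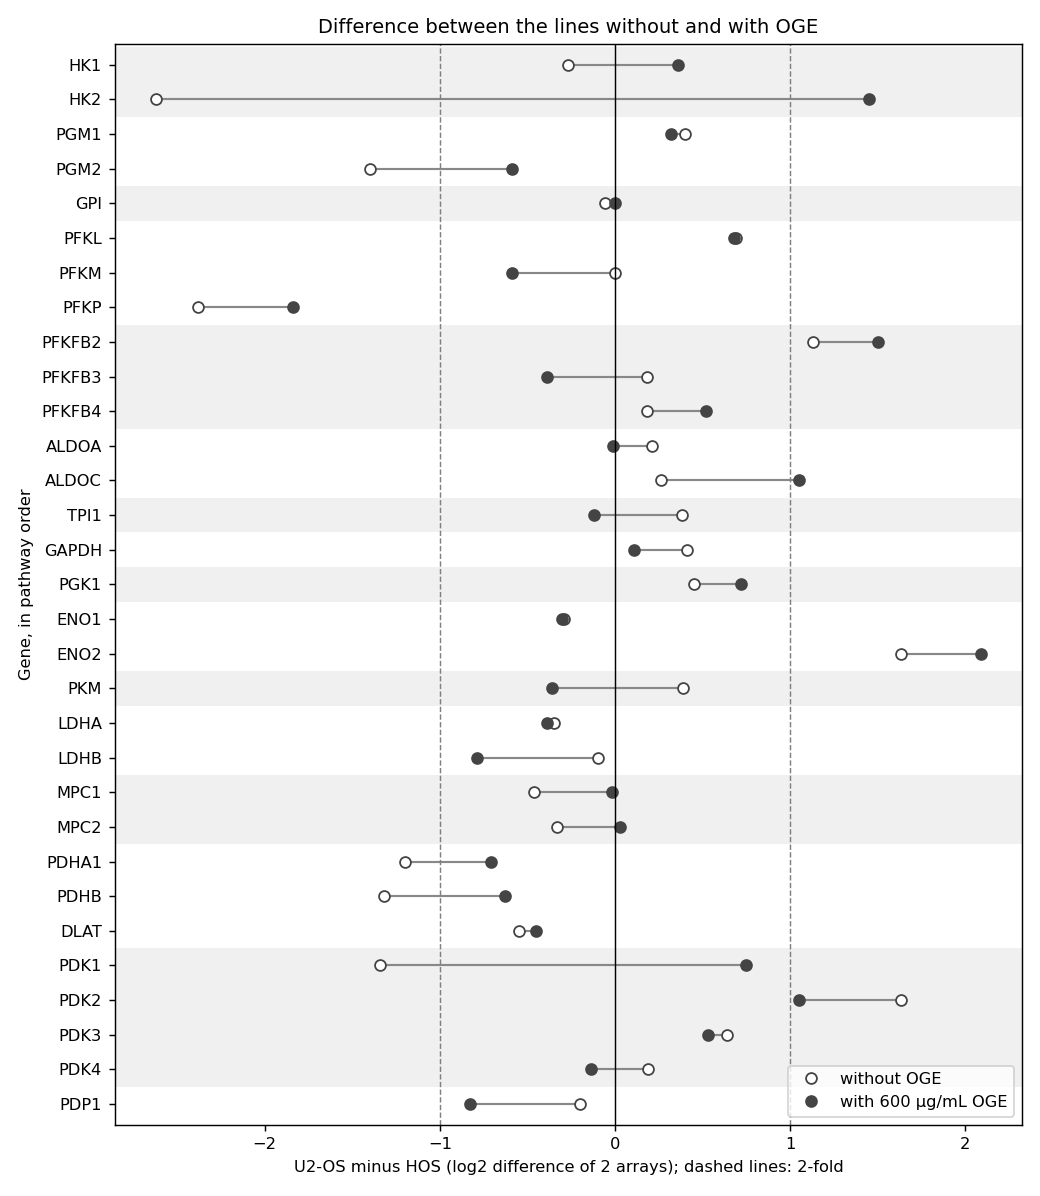
Log2 difference between U2-OS and HOS for each gene in pathway order, without OGE (open points) and with 600 μg/mL OGE (filled points), each from 2 arrays, with dashed lines at 2-fold. The sign of the difference turns with OGE for 9 genes. HK2 and PDK1 cross from below 0 to above it, as HK1 and MPC2 do with smaller differences. PFKP stays below -1 and PFKFB2, ENO2 and PDK2 stay above 1.

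Of 60 further genes of the pathway and its branches, 53 were measured and 40 were at the floor in each line. With OGE, 2 were higher by size in HOS, 5% of the 40 beside 1.70% of all genes, and 6 lower, 15% beside 2.18%. In U2-OS 2 were also higher, 5% beside 2.94%, and 6 lower, 15% beside 7.88%. In both lines 1 was higher, 2.5% beside 0.768%, and 4 were lower, 10% beside 1.09%. The list was chosen with earlier results of these data known, and the part of this choice in the shares was not tested. DLD, the third enzyme of the pyruvate dehydrogenase complex, was lower in both, with changes of -1.21 and -1.58. TIGAR, which removes fructose 2,6-bisphosphate, was also lower in both lines, with -1.29 and -1.14. The metabolite itself was not measured. HKDC1, a further hexokinase-like gene, was higher in both with 1.07 and 1.03. Its U2-OS call was lost after quantile normalization, with 0.99, and cyclic loess, with 0.96. With the floor at the 75th percentile, 0 of the further genes were higher in both lines. UGP2, which makes UDP-glucose for glycogen, was lower in both with -1.08 and -2.21, while PPP1R3C, a glycogen-targeting phosphatase subunit, was higher in U2-OS with 1.58 and had a change of 0.09 in HOS.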

How the data were processed

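The values are log2 levels per probe set that the authors deposited, made by RMA (background correction, normalization between arrays, summary of probes) per the submitters' processing notes, with no version given. The log base was taken from their range. RMA pulls low signals together and hides a shift of all genes. Values carry 2 decimals. Of 33297 probe sets, 19460 had 1 symbol in the platform annotation of 2016, 1754 several and 12083 none; 19429 were matched by gene ID to RefSeq (GRCh38.p14), which gave 18417 genes, each by its probe set with the highest mean.

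Differences of single arrays have no p-value. Calls by size need a log2 difference of 1 and the array median. Limma 3.58.1 (R 4.3.3) was fitted on all genes with line and OGE as terms, 1 residual degree of freedom before moderation, and was tested on simulated data. Its p-values set a mean difference against how far the responses of the lines disagree, with the error moderated over all genes. They measure no spread between repeat cultures or arrays of a condition. Batches are not given in the sources used here. The genes, lists and motifs were chosen with earlier results of these data known; all measured members are described, and each other pathway gene called by size; GPD1, MDH2, GOT1 and GOT2 were named after their values were seen. The number of arrays limits the precision. Alternatives were thresholds, floors, normalization, probe set means and limma settings.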

Additional observations from a re-analysis of the deposited data

How the results depend on the processing

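Of 372 changes and line differences of single members, 368 kept their call after quantile normalization, cyclic loess or the mean of probe sets. The exceptions were PGM2, LDHB under both normalizations, and PGK1 between the lines with OGE, which passed the threshold at 1.01 after quantile normalization. No value called by size changed sign, but some uncalled values near 0 did. In U2-OS the OGE change of GAPDH went from -0.07 to 0.08 after quantile normalization and 0.20 after cyclic loess. That of ENO1 went from -0.10 to 0.05 and 0.19. No member moved by more than 0.29. At 1.5-fold, 5 of 30 members were higher and 4 lower in HOS (7.43% and 9.68% of genes), 10 were higher in U2-OS (10.1%), 5 were higher in both lines (2.91%) and 4 were lower in U2-OS than in HOS in both states (8.42%). At 3-fold, 0 were higher or lower in HOS (0.282% and 0.141% of genes). In U2-OS 3 were higher, HK2, ENO2 and PDK1, and 0 lower (0.869% and 1.68%). Both lines shared 0 higher and 0 lower members (0.129% and 0.0462%). Against HOS in both states, ENO2 was higher and PFKP lower in U2-OS (0.867% and 0.994%). Members lower by size numbered 1 in HOS and 1 in U2-OS after quantile normalization, and 1 in U2-OS after cyclic loess. The median change in U2-OS was 0.15 after cyclic loess and 0.17 with the mean of probe sets, and the median line difference with OGE was 0.10 after quantile normalization. For OGE, limma called 1 member, ENO2, after quantile normalization, where 1.43% of genes were called, and 0 in its other settings. Between the lines limma called 6 members after quantile normalization (9.57% of genes), 4 after cyclic loess (7.20%), 5 with trend and robust moderation (7.11%), 4 when fitted without the dimmer genes (8.13%) and 0 without the OGE term (0.711%), beside 2 and 1.92% in the reported fit, so calls over all genes moved too; the cause was not tested. The reported limma fit pairs the arrays by cell line; without that pairing limma called 0 members for OGE and the smallest adjusted p of a member was 0.761. No array can be left out of a difference between single arrays. The table holds no scanner values, so other background corrections were not run.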

Other observations

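The other further genes called by size with OGE belong to different branches. MDH1, the cytosolic malate dehydrogenase, had levels of 7.35 and 6.28 in HOS and 7.56 and 6.30 in U2-OS, lower by size in both lines. GPD2, the mitochondrial glycerol phosphate dehydrogenase, had changes of -0.83 in HOS and -1.58 in U2-OS and was called in U2-OS. GPD1L had changes of -1.56 and -0.91 and was called in HOS, while GPD1, the cytosolic glycerol phosphate dehydrogenase, had -0.11 and 0.57 and was not called. MDH2 and GOT2, mitochondrial enzymes of the malate and aspartate shuttle, had changes between -0.08 and 0.26 in both lines, and GOT1, a cytosolic one, had 0.32 and 0.74; none of these 3 was called.

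PGLS, of the pentose phosphate path, was higher by size in HOS with 1.14 and had 0.21 in U2-OS. RPE, of the same path, was lower by size in HOS with -1.12 and had -0.95 in U2-OS. PGM2L1, a relative of PGM2 that makes glucose 1,6-bisphosphate, was lower by size in U2-OS with -1.21 and had 0.32 in HOS.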
